A study of Mus musculus with 12 samples.

Results

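The nuclear oxidative phosphorylation genes were taken by name. They are the genes of the deposited expression table whose symbol starts with Nduf, Uqcr, Cox4, Cox5, Cox6, Cox7, Cox8 or Atp5, together with Sdha, Sdhb, Sdhc, Sdhd and Cyc1. The rule found 91 of 26061 genes after 1 pseudogene name was dropped, and 86 of them were read deeply enough to be tested, among 14185 tested genes in all. The cells were mouse Tet2 KO ESCs, carrying a stable PiggyBac insertion that expressed either WT TET2 or a TET2 whose catalytic site was mutated (H1304Y, D1306A). All cells also carried a lentiviral shRNA against Setdb1 (shSetdb1), so no group has normal SETDB1, and all groups lack intact endogenous Tet2. Each line was grown in serum with LIF (primed) or in 2i with LIF (naïve), where 2i contains the MEK inhibitor PD0325901 and the GSK3 inhibitor CHIR99021. Poly(A) RNA was sequenced from 3 libraries of each of the 4 groups. Each construct was studied in its own stable line, so construct and line cannot be told apart, and the labels do not say whether the 3 libraries of a group were separate cultures, so the p-values measure only the spread between these libraries.

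Oxidative phosphorylation moves electrons from NADH and succinate to oxygen through complexes I to IV of the inner mitochondrial membrane, and complex V, the ATP synthase, uses the proton gradient that results. Most subunits are encoded in the nucleus and imported, and a small set is encoded in mitochondrial DNA. ESCs are known for a marked use of glycolysis. Primed and naïve mouse ESCs have been described as differing in how much they respire.

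The values are variance-stabilised read counts on a log2 scale, on which a gene with no reads has a value of 3.81 in every library. Libraries held 8066662 to 21335933 gene reads. The ESC genes Pou5f1, Sox2, Nanog, Sall4, Utf1 and Lin28a together took 2930 to 3780 CPM (their share of the gene reads of a library, scaled to equal depth) in all 12 libraries. Within this sum Lin28a, Utf1 and Sall4 fell in naïve cells of both lines, with differences of -3.07, -2.18 and -1.19 on the log2 scale in the WT line, Nanog rose in the WT line by 0.57, and Pou5f1 and Sox2 were not called. Marker lists of primitive endoderm, mesoderm and fibroblasts took at most 7.86, 16.7 and 7.47 CPM. Of 5 tested primed markers 4 fell in naïve cells of each line (Dnmt3b, Dnmt3l, Otx2 and Pou3f1), while Lef1 rose. Of 7 naïve markers 1 rose, Prdm14, and 2 fell, Zfp42 and Nr0b1. Tet2 transcripts were higher in the WT line by 2.16 in naïve and 1.84 in primed ESCs on the log2 scale. For TET2 protein, the paper reports similar levels in the rescue lines by western blot.

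In naïve compared with primed ESCs most nuclear oxidative phosphorylation genes had higher values, and complex IV had the largest median difference among the complexes. Most of its tested transcripts are short, and other short genes also had positive median differences, given below. In the WT TET2 rescue line 34 of the 86 tested members rose and 2 fell, against 18.6% of all tested genes called higher and 17.3% called lower (limma, adjusted p under 0.05 over all 14185 genes). In the mutant line 31 rose and 1 fell, against 18.3% and 16.9% of all genes. The median difference over the 86 members was 0.41 on the log2 scale in the WT line and 0.39 in the mutant line, where the medians of all tested genes were 0.011 and -0.009. The naïve minus primed differences of the lines share no library. The spread of each gene was estimated once from all 12 libraries, however, so the calls of the lines are not independent. In both lines 24 members rose, which is 70.6% of the calls in the WT line and 77.4% of those in the mutant line. Of all tested genes 13.7% were called higher in both. The direction was the same in both lines for 83 of 86 members, and the share of all tested genes with the same direction was not computed.

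**Figure D1:**
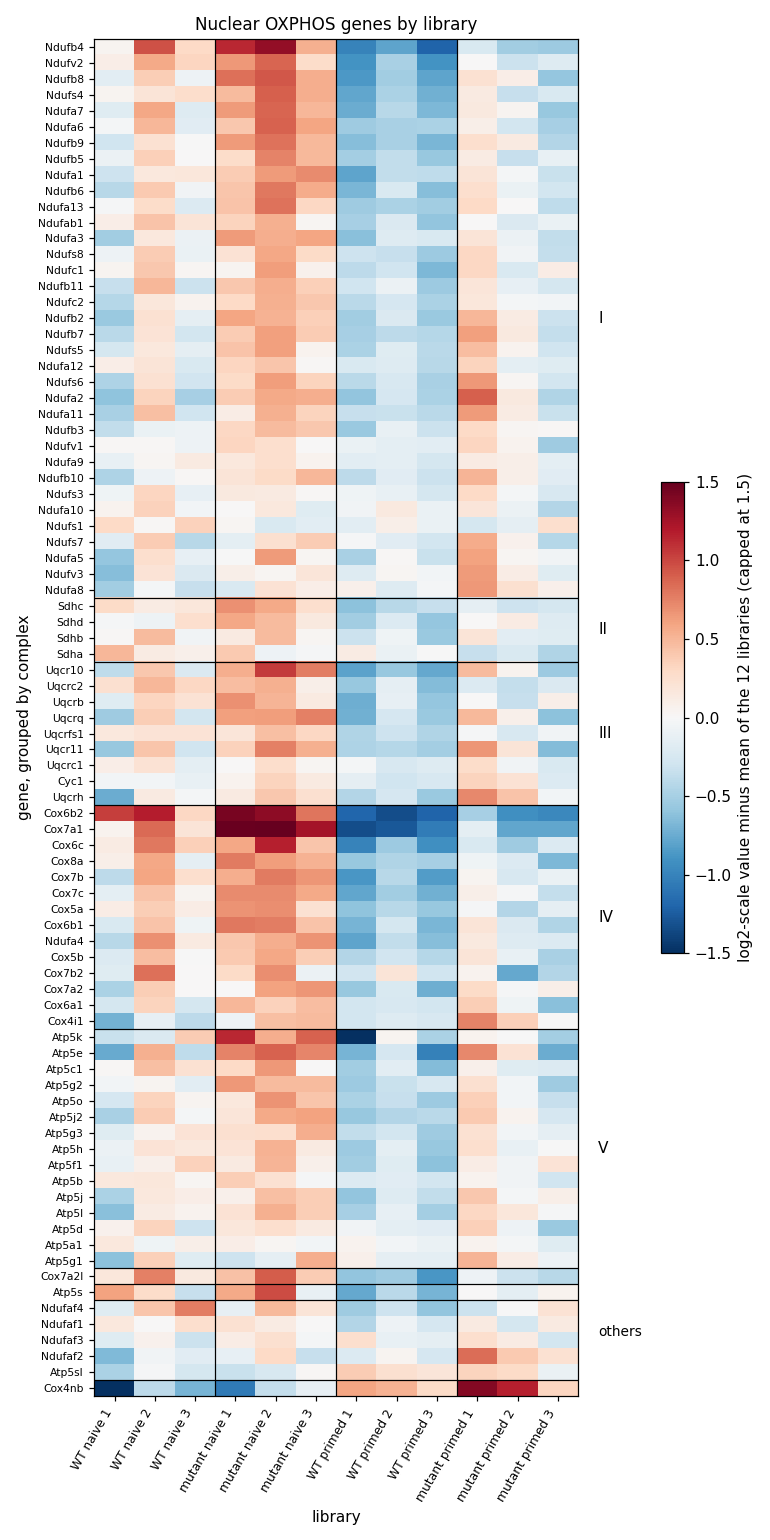
Heat map of 85 of the 86 tested members (rows, grouped by complex) in the 12 libraries (columns), coloured by the log2-scale value minus the mean of that gene over all libraries. Rows are mostly red in mutant naïve and mostly blue in WT primed libraries, where the median tested member was at 0.32 to 0.54 and at -0.50 to -0.24. In WT naïve and mutant primed libraries it ranged from -0.18 to 0.30 and from -0.25 to 0.24. WT naïve 2 and mutant primed 1 are redder than the other libraries of their groups.

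Single libraries carried part of these counts. Without WT naïve replicate 2, WT primed replicate 1 or WT primed replicate 3 the WT count fell from 34 to 18 in each case, and without mutant naïve replicate 2 the mutant count fell from 31 to 20. When each library of a comparison was left out in turn, 15 members of the WT line and 17 of the mutant line were called higher in all 6 fits. The shares of all tested genes called in these fits were not computed, so the counts cannot be set against them. The 13 members found in both of these lists were Cox5a, Cox6b2, Cox6c, Cox7a1, Cox7a2l, Cox7b, Cox7c, Ndufb4, Ndufb8, Ndufs4, Ndufv2, Sdhc and Uqcrc2, so 6 of them are subunits of complex IV and 4 of complex I. The Cox4nb call, which was in the opposite direction, also held in all 6 fits of each line.

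**Figure D2:**
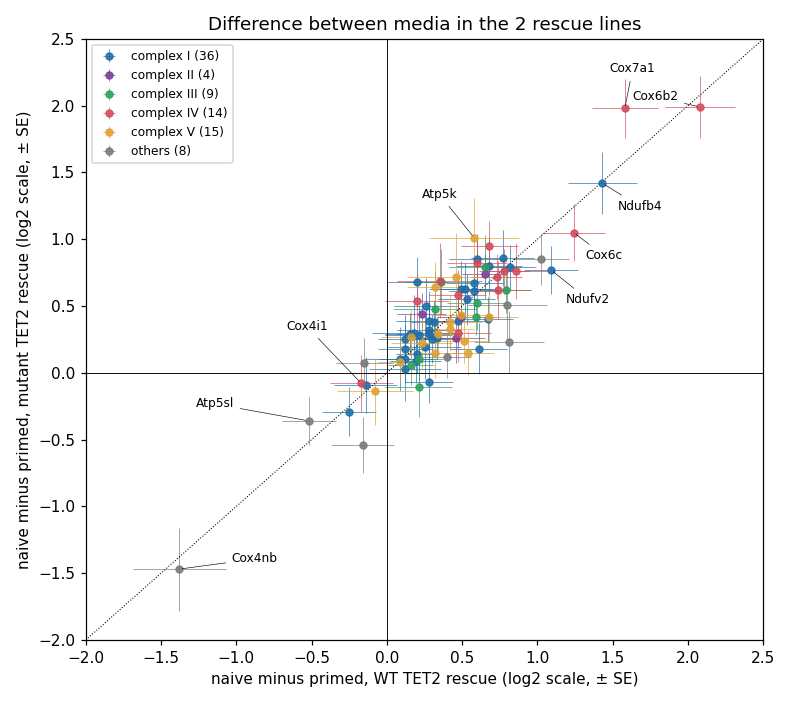
Naïve minus primed difference of each tested member in the WT (x axis) and mutant (y axis) rescue line, on the log2 scale with standard errors, coloured by complex, with the line of equal differences dotted. Points follow the dotted line, Cox6b2 (2.08 and 1.99) and Cox7a1 (1.58 and 1.98) lie farthest up it, and Cox4nb (-1.38 and -1.47) lies alone at the lower end.

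Complex IV, cytochrome c oxidase, passes electrons from cytochrome c to oxygen. Of its 14 tested subunits 9 rose in the WT line and 10 in the mutant line, none fell, and the median differences were 0.70 and 0.74. That is 64.3% and 71.4% called higher, against 18.6% and 18.3% of all tested genes. Cox6b2, the isoform of subunit VIb known from testis, had the largest difference. Its values were 9.41, 9.55 and 8.69 in WT naïve, 9.80, 9.72 and 9.18 in mutant naïve, 7.19, 7.05 and 7.17 in WT primed and 7.88, 7.45 and 7.41 in mutant primed libraries. Every naïve library lay above every primed one. The differences were 2.08 (SE 0.23, limma, adjusted p = 4.11e-06) and 1.99 (SE 0.23, adjusted p = 7.11e-06). Per transcript length it went from 17.8 ± 1.30 to 88.7 ± 28.1 RPKM (gene reads scaled to depth and to the length of the transcript) in the WT line and from 25 ± 4.76 to 113 ± 22.7 in the mutant line (SD, n = 3 each). Cox6b1, its ubiquitous counterpart, remained the more abundant of the pair per length, at 264 ± 45.8 in WT primed and 392 ± 98.6 in WT naïve libraries (SD, n = 3 each). Cox6b1 also rose, by 0.60 (SE 0.20, adjusted p = 0.0320) and 0.82 (SE 0.20, adjusted p = 0.00554), but in the WT line the call was lost without WT naïve replicate 2, WT primed replicate 1 or WT primed replicate 3.

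Cox7a1, the subunit VIIa isoform of heart and skeletal muscle, showed the other large difference. Its values were 8.34, 9.13 and 8.48 in WT naïve, 9.77, 9.81 and 9.53 in mutant naïve, 6.95, 7.02 and 7.24 in WT primed and 8.14, 7.51 and 7.51 in mutant primed libraries. No naïve library overlapped with a primed one, and in each medium the WT values were all below the mutant ones. The naïve minus primed differences were 1.58 (SE 0.22, limma, adjusted p = 4.72e-05) and 1.98 (SE 0.22, adjusted p = 5.68e-06). Cox7a2, the isoform of most tissues, was higher per length, at 222 ± 38.3 against 25.6 ± 4.10 RPKM for Cox7a1 in WT primed libraries (SD, n = 3 each). Cox7a2 differed by 0.47 (adjusted p = 0.106) and 0.30 (adjusted p = 0.301) and was not called. Cox7a2l, which is built into supercomplexes that join complexes III and IV, rose by 1.02 (SE 0.19, adjusted p = 0.000647) and 0.85 (SE 0.19, adjusted p = 0.00269), with 43.9% of its transcript also found elsewhere in the genome.

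Among the other subunits of complex IV, Cox6c rose by 1.24 (SE 0.21, limma, adjusted p = 0.000317) and 1.05 (SE 0.21, adjusted p = 0.00131). Its values were 12.29, 12.96 and 12.52 in WT naïve against 11.17, 11.62 and 11.25 in WT primed libraries, and 12.75, 13.34 and 12.59 in mutant naïve against 11.94, 11.63 and 11.96 in mutant primed libraries, without overlap in either line. Cox5a, Cox7b, Cox7c and Cox8a rose in both lines, by 0.68 to 0.86 in the WT line and 0.72 to 0.95 in the mutant line. The call of Cox8a in the WT line was lost without WT naïve replicate 2. Ndufa4, first assigned to complex I by its name and later placed in complex IV, rose by 0.74 (adjusted p = 0.0147) and 0.62 (adjusted p = 0.0361), the first call lost without WT naïve replicate 2 or WT primed replicate 1 and the second kept in 1 of 6 fits without a library, the one without mutant primed replicate 1. Cox5b rose in the mutant line by 0.58 (adjusted p = 0.0260, kept only without mutant naïve replicate 3 or mutant primed replicate 1) and differed by 0.47 in the WT line (adjusted p = 0.0662). Of its transcript 50.6% is also found elsewhere.

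Cox4i1, the constitutive subunit IV, was the most abundant subunit of complex IV per length in 3 of the 4 groups, all but WT naïve, and was not called between media. It was at 666 ± 129 RPKM in WT naïve and 766 ± 30.5 in WT primed libraries, and at 1090 ± 229 and 1150 ± 271 in the mutant line (SD, n = 3 each). The naïve minus primed differences were -0.17 (SE 0.21, limma, adjusted p = 0.558) and -0.08 (SE 0.21, adjusted p = 0.794). Cox6a1 differed by 0.20 and 0.54 and Cox7b2, an isoform described in testis, by 0.35 and 0.69, with adjusted p-values of 0.480, 0.0565, 0.344 and 0.0623. Cox4nb, which has since been named Emc8 and belongs to a membrane protein insertion complex of the endoplasmic reticulum, is not a subunit of complex IV. It shares its name with Cox4i1 as its neighbour on chromosome 8, where it lies at 123177814 to 123192012 on the minus strand and Cox4i1 at 123192190 to 123198109 on the plus strand (mm9). Cox4nb fell by 1.38 (SE 0.31, adjusted p = 0.0027) in the WT line and by 1.47 (SE 0.31, adjusted p = 0.00174) in the mutant line. Its values were 9.21, 10.45 and 10.15 in WT naïve against 11.44, 11.37 and 11.13 in WT primed, and 9.79, 10.49 and 10.73 in mutant naïve against 12.23, 12.02 and 11.17 in mutant primed libraries.

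**Figure D3:**
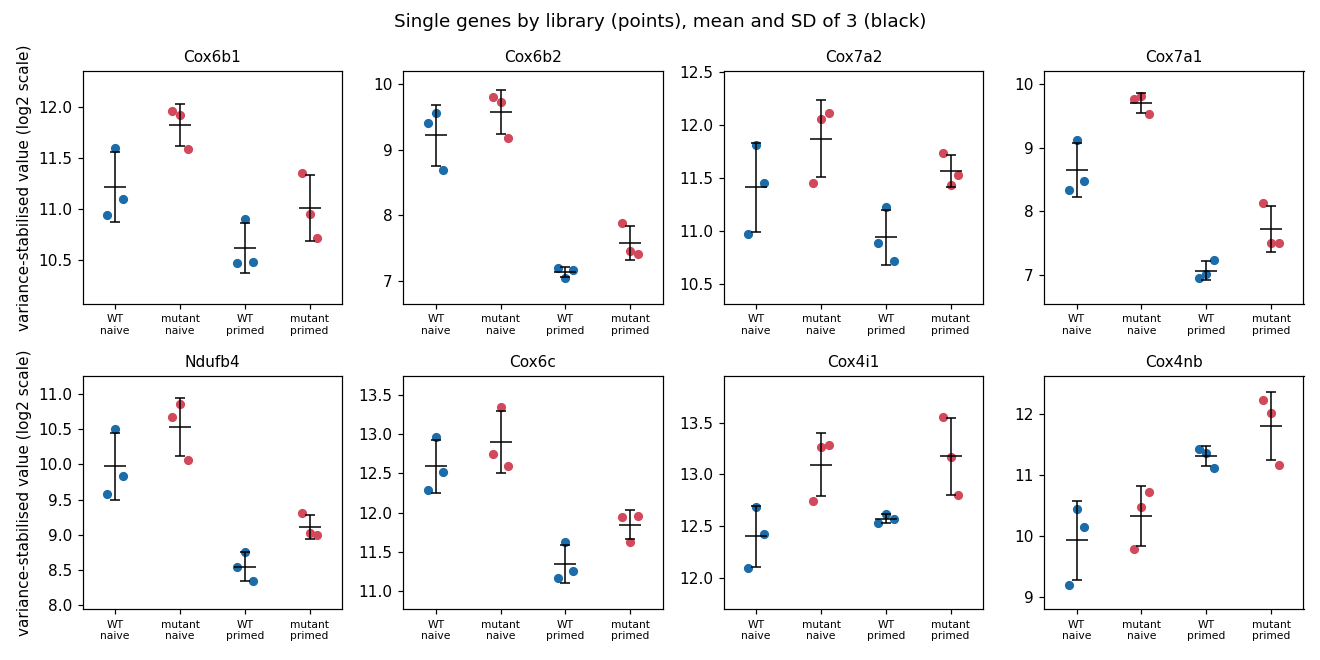
Values on the variance-stabilised log2 scale of 8 genes in each library (points, blue for WT and red for mutant TET2) with the mean and SD of 3 libraries (black). Cox6b2, Cox7a1, Ndufb4 and Cox6c are higher in the naïve groups of both lines, Cox6b1 and Cox7a2 shift less, Cox4i1 is lower in WT than in mutant libraries of each medium, and Cox4nb is higher in the primed groups.

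The other isoform genes of complex IV were read rarely or not at all. Cox6a2, the muscle isoform of subunit VIa, had 0 reads in all libraries. Cox8b had 1 read in a single mutant naïve library, and Cox4i2, the isoform of lung, had 0 to 4 reads per library. Cox8c had 0 to 4 and Ndufa4l2, a gene induced by hypoxia, had 0 to 22 reads, the highest in WT naïve replicate 2. None of these 5 genes was tested.

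The promoters of members with the largest naïve minus primed differences are shown next, with that of Cox6b1 for comparison with Cox6b2. Each run is the stretch of 150 bases that ends at the RefSeq start of the gene, 5′ to 3′ on the gene's strand, on GRCm38.p6, a later build than the mm9 used for the reads. Capitals mark a nuclear receptor element (AAGGTCA) in Ndufb4 and an ETS core (CCGGAAG, here on the other strand) in Cox6b1. The positions are chr7:4753095-4753244 on the minus strand for Cox6b2, chr7:30184021-30184170 on the plus strand for Cox7a1, chr16:37654369-37654518 on the minus strand for Ndufb4 and chr7:30626115-30626264 on the minus strand for Cox6b1.
Cox6b2: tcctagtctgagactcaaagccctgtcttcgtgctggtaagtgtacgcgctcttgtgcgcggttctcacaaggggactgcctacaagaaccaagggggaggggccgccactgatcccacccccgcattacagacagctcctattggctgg
Cox7a1: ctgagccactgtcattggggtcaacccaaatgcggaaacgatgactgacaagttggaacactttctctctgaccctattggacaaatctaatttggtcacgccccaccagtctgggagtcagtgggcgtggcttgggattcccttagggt
Ndufb4: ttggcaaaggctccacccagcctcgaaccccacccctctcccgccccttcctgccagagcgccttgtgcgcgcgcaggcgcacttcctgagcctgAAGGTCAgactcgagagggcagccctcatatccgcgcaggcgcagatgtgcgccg
Cox6b1: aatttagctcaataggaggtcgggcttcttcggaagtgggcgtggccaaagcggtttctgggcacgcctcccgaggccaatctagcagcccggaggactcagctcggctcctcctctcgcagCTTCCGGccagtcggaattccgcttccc

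Core motifs of factors known to act on respiratory genes were searched on both strands in windows of 300 bases, 250 before and 50 after the start, which were at hand for 71 of the 91 members. The NRF1 core GCATGCG, which can overlap itself on the other strand, was found in 12 members (16.9%), against 7.32% of 9477 tested genes and 4.01% of all 27025 genes with a window. The ETS core, bound by GABPA among others, was found in 17 members (23.9%), against 19.5% of tested genes. The YY1 core AAGATGG was found in 10 (14.1%, against 8.15%) and the nuclear receptor element in 8 (11.3%, against 4.06%). Of the 20 members with a window that rose in both lines, 1 held the NRF1 core, 2 the ETS core, 3 the YY1 core and 1 the nuclear receptor element. Among the 51 other members with a window these numbers were 11, 15, 7 and 7. In the 250 bases before the start, Cox6b2 and Cox7a1 held none of the 4 motifs.

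Complex I, the NADH dehydrogenase, has a catalytic core and a larger number of accessory subunits around it. Of its 36 tested subunits 12 rose in each line and none fell, with medians of 0.28 and 0.31. That is 33.3% called higher in each line, against 18.6% (WT line) and 18.3% (mutant line) of all tested genes. When subunits were split by role, a split chosen after the values were seen, 1 of the 7 nuclear core subunits rose, Ndufv2, a subunit of the NADH-binding module, by 1.09 (SE 0.18, limma, adjusted p = 0.000266) and 0.77 (SE 0.18, adjusted p = 0.00415). Its values were 11.89, 12.36 and 12.11 in WT naïve against 10.90, 11.30 and 10.89 in WT primed, and 12.44, 12.66 and 12.07 in mutant naïve against 11.80, 11.47 and 11.60 in mutant primed libraries. Ndufs1, Ndufs3, Ndufs7, Ndufs8 and Ndufv1, also of the core, differed by 0.09 to 0.47 in the WT line and -0.07 to 0.39 in the mutant line, and none of these was called. Of the 29 accessory subunits 11 rose in each line, with medians of 0.28 and 0.38. Their median transcript length was 875 bases, against 1540 for the core subunits.

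Among the accessory subunits Ndufb4, of the membrane arm, had the largest difference, at 1.43 (SE 0.23, limma, adjusted p = 0.000207) and 1.42 (SE 0.23, adjusted p = 0.000231). It was at 9.58, 10.50 and 9.84 in WT naïve against 8.54, 8.75 and 8.34 in WT primed libraries, and at 10.67, 10.86 and 10.07 in mutant naïve against 9.31, 9.02 and 9.0 in mutant primed libraries. The groups did not overlap, and 39.7% of its transcript is also found elsewhere in the genome, where the authors' alignment would place reads at random. Ndufs4, which is mutated in models of Leigh syndrome, rose by 0.82 (SE 0.17, adjusted p = 0.00116) and 0.79 (SE 0.17, adjusted p = 0.00168). Ndufb8, of the membrane arm, rose by 0.77 (adjusted p = 0.00853) and 0.86 (adjusted p = 0.00448). Ndufa6 rose by 0.60 and 0.85, with the WT call lost without WT naïve replicate 2 or any single WT primed library. Ndufa7 was the most abundant member of complex I per length, at 429 ± 143 in WT naïve and 267 ± 32.1 RPKM in WT primed libraries (SD, n = 3 each), and rose in both lines. Its WT call was lost without WT naïve replicate 2, WT primed replicate 1 or WT primed replicate 3, and its mutant call without mutant naïve replicate 2. Ndufa8 was the complex I subunit with the lowest differences, at -0.25 and -0.29 (adjusted p = 0.303 and 0.225).

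Complex II, succinate dehydrogenase, links the respiratory chain to the TCA cycle, and its 4 subunits are all nuclear. Sdhc, a membrane anchor, rose by 0.65 (SE 0.15, limma, adjusted p = 0.00313) and 0.74 (SE 0.15, adjusted p = 0.00127). It was at 10.58, 10.42 and 10.46 in WT naïve against 9.68, 9.88 and 9.95 in WT primed, and at 10.98, 10.86 and 10.55 in mutant naïve against 10.16, 9.98 and 10.03 in mutant primed libraries. Sdhd, the other anchor, rose in the WT line by 0.49 (adjusted p = 0.0290), a call lost without WT naïve replicate 3, WT primed replicate 1 or WT primed replicate 3, and differed by 0.42 in the mutant line (adjusted p = 0.0565). Sdha, the flavoprotein, rose in the mutant line by 0.44 (adjusted p = 0.0473) and differed by 0.23 in the WT line (adjusted p = 0.289). The Sdha call was lost in 4 of the 6 fits without a library, those without mutant naïve replicate 1 or any single mutant primed library. Sdhb, the iron-sulphur subunit, differed by 0.46 and 0.26 and was not called in either line.

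Complex III, the cytochrome bc1 complex, had 4 of 9 tested members called higher in each line and none called lower, with medians of 0.36 and 0.48. That is 44.4% called higher in each line, against 18.6% (WT line) and 18.3% (mutant line) of all tested genes. Uqcrc2, a core protein, rose by 0.79 (SE 0.17, limma, adjusted p = 0.00168) and 0.62 (SE 0.17, adjusted p = 0.00906). Uqcrfs1, the Rieske iron-sulphur protein, rose by 0.59 (adjusted p = 0.00303) and 0.42 (adjusted p = 0.0241, lost without mutant naïve replicate 2 or mutant primed replicate 2). Cyc1, cytochrome c1, differed by 0.16 and 0.06 and Uqcrc1, the other core protein, by 0.21 and 0.10, and neither was called. Uqcr10, a small subunit, had the highest level per length in the complex, at 706 ± 216 in WT naïve and 452 ± 40.5 in WT primed libraries (SD, n = 3 each). It rose by 0.65 (adjusted p = 0.0432) and 0.79 (adjusted p = 0.0167), and the WT call was lost without WT naïve replicate 2 or any single WT primed library, and the mutant call without mutant naïve replicate 2 or mutant primed replicate 3.

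In complex V 4 of 15 subunits rose in the WT line (Atp5c1, Atp5f1, Atp5g3 and Atp5h) and 2 in the mutant line (Atp5g2 and Atp5k), which is 26.7% and 13.3% against 18.6% and 18.3% of all tested genes. The complexes were not tested against each other. No subunit of complex V rose in both lines, although 14 of 15 had positive differences in each. Atp5b, the catalytic beta subunit, was the most abundant member per length in 3 of the 4 groups, all but mutant primed, at 1310 ± 97.5 RPKM in WT naïve, 1400 ± 155 in mutant naïve, 1070 ± 22.1 in WT primed and 1140 ± 114 in mutant primed libraries (SD, n = 3 each). Its differences were 0.34 (adjusted p = 0.117) and 0.29 (adjusted p = 0.179), and those of Atp5a1, the alpha subunit, were 0.09 and 0.08. Atp5k, a small membrane subunit, was at 10.37, 9.79 and 10.13 in mutant naïve against 9.30, 9.23 and 8.73 in mutant primed libraries, a difference of 1.01 (SE 0.30, limma, adjusted p = 0.0169) that was not called without mutant naïve replicate 1 or mutant primed replicate 3. The genes of subunit c differ in their copies elsewhere, with 100% of the Atp5g2 transcript, 24% of Atp5g1 and 0% of Atp5g3 found at other places, so the values of Atp5g2 and Atp5g1 are uncertain. The same limit holds for other subunits called here, with 41.3% of the Atp5h transcript, 15.4% of Atp5f1 and 1.81% of Atp5c1 found elsewhere. Atp5g3 rose in the WT line by 0.42 (adjusted p = 0.0491), close to the threshold, and this call was lost in 5 of 6 fits without a library, all but the one without WT naïve replicate 1. Atp5g2 rose in the mutant line by 0.64 (adjusted p = 0.0136, lost without mutant naïve replicate 1 or mutant primed replicate 3), and Atp5g1 differed by -0.08 and -0.14.

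The 5 assembly factors of complex I that the rule takes in did not move together. Ndufaf4 rose in the WT line by 0.81 (SE 0.23, limma, adjusted p = 0.0105, lost without WT naïve replicate 3) and differed by 0.23 in the mutant line, Atp5sl fell in the WT line by 0.52 (SE 0.18, adjusted p = 0.0307), and Ndufaf1, Ndufaf2 and Ndufaf3 were not called. The Atp5sl call was kept in 1 of the 6 fits without a library, the one without WT naïve replicate 2. Atp5s, a coupling factor of the ATP synthase, rose in the WT line by 0.80 (adjusted p = 0.0267), and lost this call without WT naïve replicate 1 or 2 or WT primed replicate 1 or 3.

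Reads on the members made up 1.59% to 1.99% of all gene reads in WT naïve, 2.08% to 2.30% in mutant naïve, 1.30% to 1.43% in WT primed and 1.43% to 1.88% in mutant primed libraries. The naïve shares lay above the primed shares in each line, without overlap. For complex IV the share was 0.330% ± 0.0782 in WT naïve against 0.225% ± 0.0197 in WT primed, and 0.460% ± 0.0343 in mutant naïve against 0.303% ± 0.0438 in mutant primed libraries (SD, n = 3 each). Complex V, with Atp5b and Atp5a1, took the largest share, 0.656% ± 0.0357 against 0.542% ± 0.0221 in the WT line and 0.739% ± 0.0252 against 0.611% ± 0.0655 in the mutant line. In bulk RNA a change in the fraction of cells that express a gene and a change in RNA per cell cannot be told apart.

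**Figure D4:**
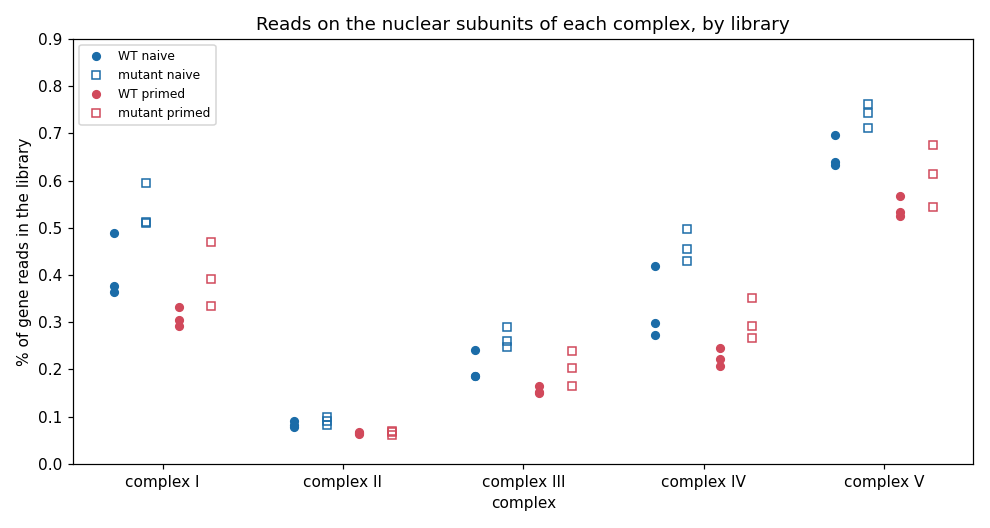
Percent of the gene reads of each library that fell on the nuclear subunits of complexes I to V, with filled circles for WT and open squares for mutant TET2, blue for naïve and red for primed libraries. In each complex the mutant naïve libraries are the highest or nearly so and the WT primed libraries the lowest or nearly so, and outside complex II the SD is larger in WT naïve and mutant primed libraries than in the other groups.

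The 13 protein genes of mitochondrial DNA were listed at 0 reads in all 12 libraries, so the mitochondrial subunits of these complexes could not be compared. Across all tested genes 18.6% were called higher and 17.3% lower in the WT line, and 18.3% and 16.9% in the mutant line. The lists that follow were not tested against these shares. Among 13 TCA cycle enzymes 4 rose and none fell in each line, with Fh1 and Dlst called in both. Of 76 genes of mitochondrial ribosomal proteins 8 rose and 0 fell in the WT line and 4 rose and 2 fell in the mutant line, and their median differences were 0.11 and -0.01, close to those of all genes. Of 15 genes for cytochrome c and coenzyme Q synthesis 5 rose in the WT line and 3 in the mutant line. Cyct, the cytochrome c of testis, had the largest difference of that list in the WT line, 1.08 (limma, adjusted p = 0.00476), and was at 1.22 in the mutant line (adjusted p = 0.00212), while the somatic Cycs differed by 0.57 (adjusted p = 0.0214) and 0.40 (adjusted p = 0.0983). Of 26 assembly factors outside the naming rule 6 rose and 1 fell in the WT line, and 5 rose and 2 fell in the mutant line. Lyrm7, which acts on complex III, rose by 1.14 and 1.41. Glycolysis genes moved both ways, with 5 of 23 higher and 7 lower in each line, among them the glucose transporter Slc2a1, lower by -1.92 and -1.82, and Aldoc, higher by 1.45 and 1.63.

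Among 18 tested regulators of mitochondrial genes 6 rose and 2 fell in the WT line and 2 rose and 3 fell in the mutant line. The shares of all tested genes were 18.6% higher and 17.3% lower in the WT line, and 18.3% and 16.9% in the mutant line. Ppargc1b, a coactivator of respiratory genes, rose by 0.81 (limma, adjusted p = 0.0127) and 1.32 (adjusted p = 0.00042), and Esrra, a nuclear receptor it acts with, rose by 0.48 (adjusted p = 0.0471) and 0.58 (adjusted p = 0.0204). Ppargc1a had 0 reads. Nrf1 differed by -0.08 and -0.28 and Tfam, the packaging factor of mitochondrial DNA, by 0.21 and -0.09, and neither was called. Yy1 fell in both lines, by 0.48 and by 0.89, and so did Polrmt, the mitochondrial RNA polymerase, by 0.69 and by 0.60.

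The rescue lines, which differ in the catalytic site of TET2 and also in the level of Tet2 transcripts, were compared within each medium. No member was called, in naïve or in primed ESCs, by limma or by limma-voom on the recovered reads, where 0.0987% and 0.254% of all tested genes were called (limma, adjusted p under 0.05). Yet 80 of 86 members had lower means with WT TET2 in naïve and 81 of 86 in primed ESCs, and 78 in both. The median differences, WT minus mutant, were -0.37 and -0.42, where the medians of all genes were 0.003 and 0.009. At an unadjusted p under 0.05, 37 members in naïve and 40 in primed ESCs were lower with WT TET2, against 6.96% and 8.11% of all genes and 32.1% and 28.8% of other genes with transcripts under 750 bases. The groups did not overlap, with WT the lower, for 27 members in naïve (all genes 8.01%) and 37 in primed ESCs (10.9%).

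Same-numbered libraries deviated together in naïve ESCs, and a fit that blocked on the replicate number called 1 member there, Cox7a1, with a difference of -1.05 (limma, SE 0.20, adjusted p = 0.0337, against 0.254% of genes called in that fit). Without the block its adjusted p was 0.109, and it was called without the block when WT naïve replicate 2 was left out, at -1.29. Ndufa3 and Ndufb3, accessory subunits of complex I, were at -0.74 (SE 0.19, adjusted p = 0.229) and -0.58 (SE 0.16, adjusted p = 0.254) in naïve ESCs. Ndufb3 was at 8.98, 9.25 and 9.27 with WT and 9.66, 9.82 and 9.75 with mutant TET2. In primed ESCs the members with the smallest p were Uqcrh, the hinge protein of complex III, at -0.79 (SE 0.22, adjusted p = 0.160), Cox7c at -0.58 (SE 0.17, adjusted p = 0.173) and Ndufv2 at -0.59 (SE 0.18, adjusted p = 0.193). For Uqcrh the WT libraries were at 10.42, 10.60 and 10.30 and the mutant libraries at 11.58, 11.29 and 10.82. Cox4i1 had differences of -0.69 in naïve and -0.60 in primed ESCs, with WT libraries below mutant libraries in each medium (adjusted p = 0.262 and 0.211). The difference was positive for 6 members in naïve and 5 in primed ESCs, among them Ndufa10, Sdha and Atp5a1 in both media. For Sdha it was 0.13 in naïve and 0.34 in primed ESCs (adjusted p = 0.747 and 0.315).

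Transcript length, taken as that of the longest annotated protein-coding transcript of each gene, moved with this difference. The median member transcript had 959 bases and the median tested gene 2878, and 34 of the 86 members (39.5%) were shorter than 750 bases against 4.54% of tested genes. The 570 other genes under 750 bases were also lower with WT TET2, with medians of -0.35 in naïve and -0.33 in primed ESCs, while the 6300 other genes of 3000 bases and over had medians of 0.12 and 0.14. Members under 750 bases had medians of -0.52 and -0.47, and the 6 members of 3000 bases and over had medians of -0.25 and -0.39. Among these 6 are Ndufb2, Ndufab1 and Atp5g1, at 4371, 3479 and 4715 bases. Which transcript was expressed was not tested, so a member can stand in a longer class than that of its expressed transcript. After each library was centred within classes of transcript length, the medians over all members were -0.15 and -0.16, and after centring within classes of length and GC content they were -0.22 and -0.18. With that centring and the replicate block together 11 members in naïve and 7 in primed ESCs were called lower, against 1.77% and 2.73% of all genes. The replicate numbers did not pair the primed libraries, so the block has no support in the data for the 7 primed calls, or for the primed side of Cox4i1, Ndufb9 and Uqcr10, which were called in both media. The 11 naïve calls rest on a pairing chosen from these same data. The centring, by the length of the longest annotated transcript, was added after the data were seen.

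**Figure D5:**
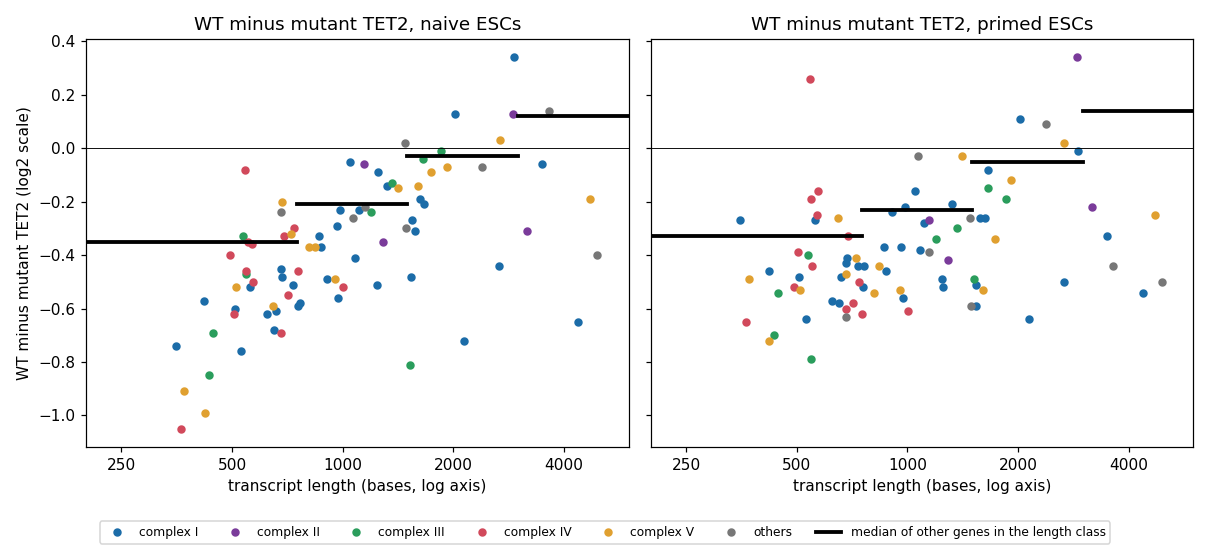
WT minus mutant difference of each tested member on the log2 scale against transcript length (log axis), in naïve (left) and primed (right) ESCs, coloured by complex, with bars at the median of all other genes in each length class. Length is that of the longest annotated protein-coding transcript of a gene, which need not be the transcript expressed. The bars climb from -0.35 to 0.12 in naïve and from -0.33 to 0.14 in primed ESCs from the shortest to the longest class, and 65 and 68 of the 86 members lie below the bar of their class.

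The same class of short genes moved with single libraries. Relative to each gene's mean over the 12 libraries, the median member was at 0.30 in WT naïve replicate 2 and at -0.18 and -0.04 in replicates 1 and 3, and other genes under 750 bases were at 0.27, -0.21 and -0.09 in the same libraries. In mutant primed libraries the members were at 0.24, -0.04 and -0.25 and the other short genes at 0.28, 0.01 and -0.20. Between media the other short genes differed less than the members, with naïve minus primed medians of 0.26 and 0.27 against 0.48 and 0.63 for members under 750 bases. After centring within classes of length and GC content 33 members rose in the WT line and 36 in the mutant line, against 21.2% and 22.7% of all genes, with medians of 0.27 and 0.31. Transcripts of 2-cell-like cells were also more abundant in the mutant line, at 16.1 to 29.1 against 8.09 to 9.74 CPM in naïve and 17.9 to 86.3 against 5.52 to 10.2 in primed libraries, and their part in the result was not tested.

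The effect of the medium was not shown to differ between the rescue lines for any member. The interaction, which subtracts the naïve minus primed difference of the mutant line from that of the WT line, had a median of 0.02 over the members. No gene of 14185 was called in it (0.0%), with 489 genes and 0 members at an unadjusted p under 0.05. The smallest p-values were those of Ndufaf4, at 0.58 (SE 0.32, adjusted p = 0.976), Ndufa3 and Atp5f1.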

How the data were processed

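Poly(A) RNA libraries of 12 samples were sequenced without strand information. The authors trimmed reads (Trim Galore 0.3.3), aligned them to mm9 (TopHat2 2.0.9), keeping 1 random position per read with several hits, counted reads per gene and transformed the counts with DESeq2, for which the version is not given in the sources used here. The gene annotation is not given there either. The deposited values are on the log2 scale of that variance-stabilising transformation. Inverting it returned whole reads for all values within 0.001, and no column of the table was left unused (0 columns). Because no strand was read, a member and an overlapping antisense gene cannot be told apart. By the gene models 16 tested members share exon bases with a gene on the opposite strand, over 30% of them in Ndufb6, Cox5a and Ndufa13 and at most 15.8% in the others, which include Cox6c and Uqcrc2.

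Differences were fitted with limma 3.58.1 in R 4.3.3 (variance trend, 4 group means, 12 libraries) on genes with a mean at least 1 above the lowest value, 3.81, and p-values were adjusted by Benjamini-Hochberg over these genes, with calls at an adjusted p under 0.05. Transcript lengths and copies (75-base stretches found elsewhere in the genome) were taken from NCBIM37, which is mm9, with GENCODE vM1 gene models, and promoters from RefSeq on GRCm38.p6. The longest annotated protein-coding transcript of each gene gave its length, also for RPKM. Of the 86 tested members 32 had some stretch found elsewhere. RPKM and CPM were computed from the recovered reads and the total of gene reads per library. The labels number replicates 1 to 3 in each group. Deviations from the group means correlated between same-numbered WT and mutant naïve libraries (0.586, 0.300 and 0.385), so the number was taken to pair these, from the data and not from the labels. Correlations between libraries with different numbers were not computed, so this pairing is not shown to be better than another. The calls of the block in naïve ESCs rest on a pairing chosen from the same data. In primed ESCs the deviations of same-numbered libraries did not all correlate (0.161, -0.0652 and 0.189).

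Members and gene lists were chosen with earlier results of these data known. Members named were, per medium comparison, the 8 largest called differences in each direction without overlap of groups, the 3 smallest p-values between the rescue constructs and in the interaction, isoform groups, succinate dehydrogenase subunits with Cyc1 and the highest member per length of each complex. Other members named were chosen after their values were seen. Filters, the variance trend, scaling, limma-voom on recovered reads, the replicate block, the 6 libraries alone, thresholds and single left-out libraries were varied, and centring within classes of length or GC content was added after seeing the data. The fits were tested on simulated data. 1 of the tested members is counted in the totals and is not reported by name here.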

Additional observations from a re-analysis of the deposited data

How the results depend on the processing

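Among the settings tried, the number of members called higher in naïve ESCs moved by over 1.5 times only with an adjusted p under 0.01, to 15 in the WT and 16 in the mutant line, and in fits without a library, which ranged from 18 to 39 and from 20 to 38. Members called lower in the WT line, 2, were 1 with the replicate block or an adjusted p under 0.01, 5 with centring by length and 4 by length and GC content, and in the mutant line, 1, they were 2 with median centring, limma-voom, the block or GC centring and 3 with length centring, length and GC centring, or that with the block. Fits without a library gave 1 to 2 and 1 to 3. Between the rescue constructs 0 members were called. The block gave 1 in naïve (Cox7a1) and 1 in primed ESCs (Uqcrh, adjusted p = 0.0309, in 1.47% of genes called), the block with length and GC centring gave 11 and 7, and fits without a library 0 to 1 and 0 to 2. The numbers did not pair the primed libraries or the media, and the block changed no other count of calls by over 1.5 times. Median differences between constructs became -0.15 in naïve ESCs with length centring, and in primed ESCs -0.16 with length centring and -0.18 with length and GC centring, without or with the block. Fits without a library gave medians of 0.28 to 0.53 (WT) and 0.27 to 0.52 (mutant) between media, -0.52 to -0.24 (naïve) and -0.51 to -0.26 (primed) between constructs, and -0.14 to 0.15 for the interaction. Differences close to 0 changed sign for Cox4i1 in the WT line (0.00, GC centring) and Cox6a1 in the WT line (-0.04, length centring), and in fits without a library for Cox4i1 in the mutant line (-0.27 to 0.11, positive at 0.10 and 0.11 without mutant naïve 1 and mutant primed 1), Atp5g1 in the WT line (-0.33 to 0.16, positive without WT naïve 1) and the mutant line (-0.40 to 0.04, positive at 0.04 and 0.03 without mutant naïve 1 and mutant primed 1), Cyc1 in the mutant line (-0.09 to 0.17, negative at -0.02 and -0.09 without mutant naïve 2 and mutant primed 3) and Ndufaf2 in the WT line (-0.28 to 0.02, positive without WT naïve 1). The cause was not tested. Of the other alternatives for single members 1230 kept direction and call, 51 gained a call and 74 lost one. The interaction was not refitted on 6 libraries, since it needs all 4 groups. With 3 libraries a group an exact permutation test cannot go below p = 0.1. Cox7a1 and Cox6b2 had as few as 66 and 81 reads in a library.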
